A study of Homo sapiens with 27 samples.

Results

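The comparison described here sets 3 RNA-seq libraries of the human embryonic stem cell line H1 differentiated on a laminin 523 (LN523) matrix against 3 libraries of the same line on a laminin 521 (LN521) matrix, both collected at day 32. The members were chosen by matrix and day as the count columns name them, and they were 6 of the 27 libraries of the series. The other libraries came from a laminin 323 (LN323) matrix and from days 2 and 22. The 3 LN323 libraries of day 32 entered the fits, where they shared the scaling, the gene filter, the lane block, and the estimate of the spread. All 6 cultures were treated alike apart from the coating. They received neural induction medium with CKI-7 and SB431542 from day 2, and later photoreceptor differentiation medium with B27 without vitamin A, N2, BDNF, CNTF, retinoic acid, and DAPT. The sources differ on the day of the second change of medium and on the coating itself. The sample labels give LN523 and LN521 each mixed with LN323, whereas the study's methods give LN523 mixed with LN521, and LN521 alone, and the groups therefore carry the name of their leading isoform. The titles number day 32 as 30. The cells were unsorted cultures of 1 line at passages 10 to 25, and no source used here states that the replicates were separate cultures, so p-values measure the spread between these samples, which may be technical.

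Laminins are trimers of an α, a β, and a γ chain that cells bind through integrins and dystroglycan in basement membranes. LN523 and LN521 share the α5 and β2 chains and differ in the γ chain, γ3 against γ1. In the developing eye, neuroectoderm forms the optic cup, whose inner layer gives rise to neural retina and whose outer layer gives rise to pigment epithelium, while the lens and the corneal epithelium come from the overlying surface ectoderm. Neural induction of stem cells in a dish can yield cells of all of these kinds, and in bulk RNA fewer cells of a type cannot be told apart from less RNA per cell.

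Total counts ranged from 32940453 to 47340990 over the 9 libraries of day 32. The replicate number equals the sequencing lane, which was used as a block. LN521 replicate 1 stood the farthest from the others, with a median Pearson's r of 0.922 to the other 8 libraries against 0.933 to 0.953 for the rest, across the log2 levels of genes. Levels are given as CPM, counts scaled to library size after TMM normalization. Values of a group are listed in the order of replicates 1, 2, and 3.

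By edgeR's quasi-likelihood test with lane as a block, 24 of 39377 genes (0.0609%) passed the threshold of 0.05 after Benjamini-Hochberg adjustment, with 19 (0.0483%) higher on LN523 and 5 (0.0127%) lower. Before adjustment, 2034 genes (5.17%) had a p-value under 0.05, of which 924 (2.35%) lay on the higher side and 1110 (2.82%) on the lower. Among the 16136 genes with a mean of at least 1 CPM over the 9 libraries, these shares were 5.06% and 5.65%. The groups did not overlap for 3.18% of genes in the higher and 3.18% in the lower direction, and 8.79% of genes were higher and 9.06% lower in all 3 lanes. In the 16136 genes the corresponding shares were 4.67% and 3.98% without overlap and 14.4% and 13.4% in all 3 lanes. The median log2 fold change over all genes tested was -0.0282. The genes that rose included a lens crystallin, a steroid reductase, receptors for neuropeptides, neuronal adhesion and guidance molecules, and surface and matrix proteins, whereas those that fell included a melanosome enzyme, a mucin, a protease inhibitor, and caveolin 1. The number of calls depended on the libraries and settings. It was 0 without lane as a replicate block (1449 at an unadjusted p-value under 0.05), 0 with the filterByExpr filter (1486), and 823 by the DESeq2 Wald test. It was 1907, 71, or 76 when LN521 replicate 1, 2, or 3 was left out, and 4, 36, or 1 when LN523 replicate 1, 2, or 3 was left out.

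**Figure D1:**
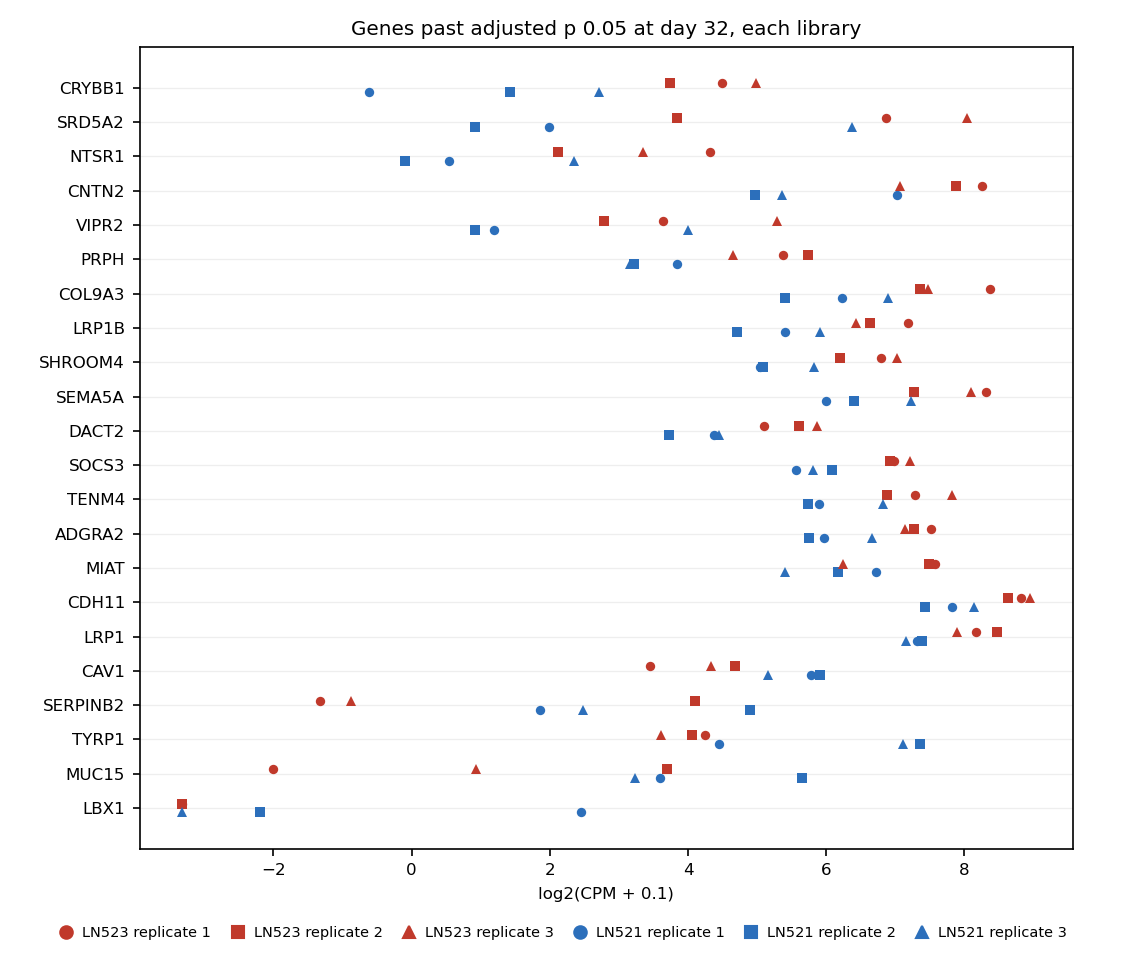
Level of 22 genes past the adjusted threshold in each LN523 (red) and LN521 (blue) library of day 32, as log2(CPM + 0.1), ordered by log2 fold change, with the symbol shape giving the replicate. The LN523 libraries lay to the right of the LN521 libraries of the same lane for the 17 genes above and to the left for CAV1, SERPINB2, TYRP1, and MUC15. The 3 LN523 libraries and LN521 replicate 3 had 0 LBX1 counts and share a position.

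Among the genes that rose, CNTN2 (ENSG00000184144; chromosome 1, 205042937 to 205078289, GRCh38) encodes contactin 2, a membrane-anchored adhesion molecule of axons. It was at 305, 235, and 134 CPM on LN523 and at 131, 31.1, and 41.1 CPM on LN521. The groups did not overlap, although LN523 replicate 3 and LN521 replicate 1 were close. The means were 225 ± 85.6 and 67.6 ± 54.8 CPM (SD, n = 3 each), and the difference was 1.88 ± 0.26 (standard error) on the log2 scale (adjusted p = 0.003). PRPH encodes peripherin, a neuronal intermediate filament. Its levels were 41.4, 53.4, and 25.0 CPM on LN523 and 14.3, 9.23, and 8.89 CPM on LN521, without overlap (log2 fold change 1.82, standard error 0.26, adjusted p = 0.00353). Exons of a gene on the other strand overlap 71.5% of PRPH exon sequence. The study's methods name a stranded library kit, but the strand setting of the counting is not given in the sources used here. Whether reads of the pair were told apart is therefore not known. The guidance molecule gene SEMA5A was at 317, 155, and 273 CPM on LN523 and at 63.6, 84.8, and 149 CPM on LN521. TENM4, which encodes a teneurin, a transmembrane protein of neuronal wiring, was at 155, 117, and 226 CPM on LN523 and at 59.2, 53.1, and 113 CPM on LN521. Both rose without overlap between the groups, by log2 fold changes of 1.32 and 1.17. The long noncoding RNA MIAT was at 191, 180, and 75.5 CPM on LN523 and at 105, 72.0, and 42.2 CPM on LN521, so it was higher in each lane with overlap between the groups (log2 fold change 1.01).

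SRD5A2 (ENSG00000277893; chromosome 2, 31522480 to 31580938) encodes the type 2 steroid 5-alpha reductase, which converts testosterone to dihydrotestosterone. Its levels were 116, 14.3, and 264 CPM on LN523 and 3.87, 1.80, and 83.1 CPM on LN521. Levels differed more between lanes than between matrices, and LN521 replicate 3 lay above LN523 replicate 2. LN523 was nevertheless higher within each lane, by 2.97 ± 0.39 (standard error) on the log2 scale (adjusted p = 0.00294). The related reductases had values of -0.19 (SRD5A1) and 0.09 (SRD5A3) on the same scale, and neither passed the test. Receptors for peptides were also among the rises. NTSR1, the neurotensin receptor gene, was at 19.9, 4.25, and 10.1 CPM on LN523 and at 1.36, 0.839, and 5.02 CPM on LN521. VIPR2, which encodes a receptor for vasoactive intestinal peptide, was at 12.4, 6.78, and 38.9 CPM on LN523 and at 2.19, 1.80, and 15.8 CPM on LN521. In both, LN521 replicate 3 lay above LN523 replicate 2, and the log2 fold changes were 2.33 and 1.86. Opposite-strand exons cover 39.4% of VIPR2 exon sequence.

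Surface and matrix genes made up a further group of rises. COL9A3, which encodes a chain of collagen IX, was at 331, 164, and 178 CPM on LN523 and at 75.2, 42.2, and 118 CPM on LN521. CDH11, a cadherin gene of mesenchymal cells, was at 452, 395, and 495 CPM on LN523 and at 225, 173, and 282 CPM on LN521. LRP1, a large endocytic receptor gene, was at 287, 355, and 237 CPM on LN523 and at 160, 166, and 142 CPM on LN521. None of these groups overlapped, and the log2 fold changes were 1.5, 1.00, and 0.89. The related receptor gene LRP1B rose by 1.41 and the actin-binding protein gene SHROOM4 by 1.35, again without overlap. Among signalling genes, SOCS3 (ENSG00000184557; chromosome 17, 78356778 to 78360077), whose product is a feedback inhibitor of JAK-STAT signalling, was at 126, 122, and 148 CPM on LN523 and at 47.3, 67.5, and 55.9 CPM on LN521. Its spread within a group was small beside the distance between the groups (132 ± 14.2 against 56.9 ± 10.1 CPM, SD, n = 3 each), and it rose by 1.23 ± 0.21 (standard error) on the log2 scale (adjusted p = 0.0221). DACT2, which encodes a Dishevelled-binding protein, rose by 1.32 (47 ± 12.1 against 18.5 ± 4.71 CPM, SD, n = 3 each), and ADGRA2, an adhesion receptor gene of WNT7 signalling, by 1.17 (159 ± 20.9 against 72.5 ± 25.3 CPM, SD, n = 3 each; 23.0% of its exon sequence has opposite-strand exons).

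Of the genes that fell, CAV1 (ENSG00000105974; chromosome 7, 116524994 to 116561179), which encodes the coat protein of caveolae, was at 10.9, 25.6, and 20.1 CPM on LN523 and at 54.8, 60.3, and 35.4 CPM on LN521. The groups did not overlap, and CAV1 fell by 1.48 on the log2 scale (standard error 0.27, adjusted p = 0.0313). MUC15, a membrane mucin gene, was at 0.15, 12.9, and 1.81 CPM on LN523 and at 12.0, 50.1, and 9.26 CPM on LN521, so replicate 2 was the highest of both groups and the groups overlapped (log2 fold change -3.29, standard error 0.53, adjusted p = 0.0147). SERPINB2, which encodes an inhibitor of plasminogen activators, was at 0.301, 17.0, and 0.446 CPM on LN523 and at 3.54, 29.6, and 5.48 CPM on LN521, again highest in replicate 2 of both groups and with overlap (log2 fold change -2.47, standard error 0.48, adjusted p = 0.0471). Same-strand exons of other genes overlap 20% of SERPINB2 exon sequence. LBX1, a homeobox gene of spinal interneurons and migrating muscle precursors, fell outside the naming rule and was singled out after its values were seen. It had 0 counts in each LN523 library and 213, 4, and 0 counts on LN521, so the call rested on LN521 replicate 1. With the 3 libraries of each group pooled, and against a floor of 3 counts over LN523, the LBX1 ratio was at least 84.5-fold. That bound covers counting error alone and came almost wholly from LN521 replicate 1. It is no minimum for the matrix, since LN521 replicate 3 had 0 counts, as did the LN523 libraries.

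The levels on LN323 are given beside these as values, since that matrix shared the fit. Means on LN323 were 46.1 CPM for CRYBB1, 128 CPM for SRD5A2, 161 CPM for SOCS3, 486 CPM for CDH11, 96.1 CPM for CNTN2, 30.6 CPM for TYRP1, and 21.9 CPM for CAV1. For CNTN2, SRD5A2, TYRP1, and CAV1 this lay between the means on LN523 and LN521, whereas for CRYBB1, SOCS3, and CDH11 it lay above both. In all of these but CNTN2 the LN323 mean lay nearer to that on LN523 than to that on LN521. On the log2 scale, LN523 minus LN323 was 1.17 for CNTN2 and between -0.69 (TYRP1) and 0.16 (SRD5A2) for the others. The libraries of LN323 spread widely for CRYBB1, at 6.97, 102, and 29.9 CPM. Its LN323 mean was thus raised by replicate 2, and LN323 replicate 1 lay below each LN523 library.

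Gene lists for cell types and pathways were then described by the number of members past each threshold and by their median log2 fold change, to be read against the -0.0282 of all genes and against the background shares given above. The lowest medians were those of surface ectoderm (-1.21), pluripotency (-1.19), and keratin genes (-1.16), and the highest was that of lens genes (1.13), as the plot of list members shows.

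**Figure D2:**
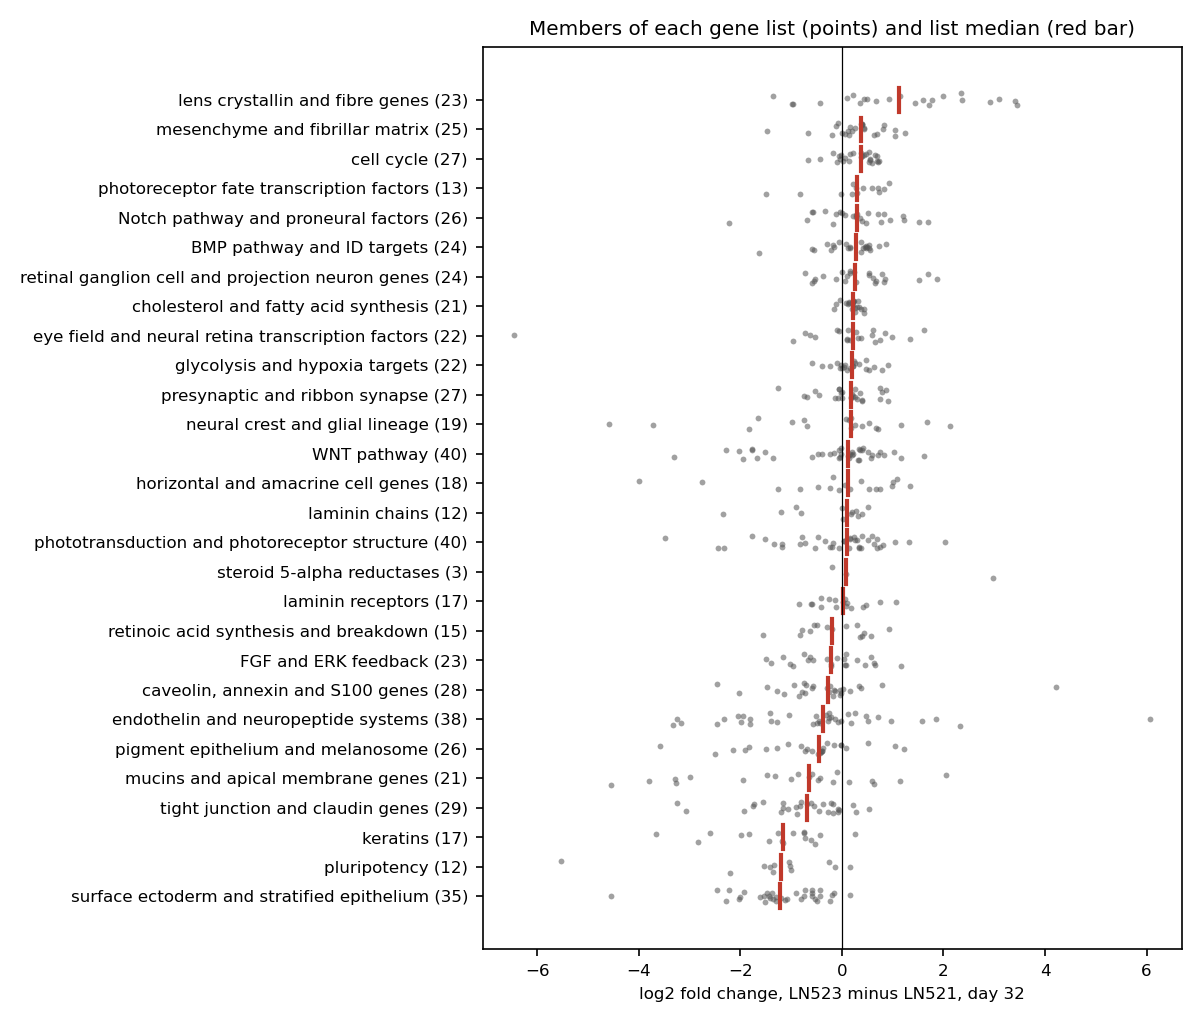
Log2 fold change (LN523 minus LN521, day 32) of each tested member of the 28 gene lists (grey points, number tested in parentheses) with the list median as a red bar, ordered by median. Medians ran from -1.21 for surface ectoderm to 1.13 for lens genes, and members of most lists lay on both sides of 0.

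Crystallins are the structural proteins of the lens. In the list of 23 lens genes, 19 had higher and 4 had lower levels on LN523, 8 of the 19 had an unadjusted p-value under 0.05, 6 had groups that did not overlap, and 1, CRYBB1, passed the adjusted threshold. CRYBB1 (ENSG00000100122; chromosome 22, 26599278 to 26618027), which encodes βB1-crystallin, was at 22.3, 13.2, and 31.6 CPM on LN523 and at 0.553, 2.58, and 6.46 CPM on LN521 (22.4 ± 9.21 against 3.20 ± 3.00 CPM, SD, n = 3 each). It rose by 3.44 ± 0.59 (standard error) on the log2 scale (adjusted p = 0.0221), and opposite-strand exons cover 11.5% of its exon sequence. CRYAA, the αA-crystallin gene, was at 13.8, 9.66, and 17.2 CPM on LN523 and at 0.804, 3.44, and 6.12 CPM on LN521. The groups did not overlap in either gene, and LN521 replicate 1 was the lowest library in both. The difference for CRYAA, 2.36 ± 0.49 (standard error) on the log2 scale, missed the threshold (adjusted p = 0.0697). CRYBA4 was at 6.66, 4.30, and 6.71 CPM on LN523 and at 0.0503, 0.419, and 2.77 CPM on LN521, and CRYBB3 at 21.6, 4.85, and 56.6 CPM on LN523 and at 0.101, 1.89, and 17.4 CPM on LN521. The groups overlapped for CRYBB3 and did not for CRYBA4, and neither gene passed the test. LIM2, a lens fibre membrane protein gene, was at 17.7 ± 13.5 and 5.14 ± 3.45 CPM (SD, n = 3 each), with a log2 fold change of 1.59 (adjusted p = 0.176). Other defining lens genes were low in both groups. The aquaporin gene MIP was at 0.873 ± 0.190 and 0.805 ± 0.497 CPM, the beaded filament gene BFSP1 at 3.79 ± 1.66 and 5.01 ± 1.31 CPM, and the lens transcription factor gene FOXE3 at 0.163 ± 0.283 and 0.0887 ± 0.0789 CPM (SD, n = 3 each). Same-strand exons of other genes overlap 56.6% of MIP exon sequence, and how reads there were assigned is not known. Summed over the lens list, levels were 360, 134, and 338 CPM on LN523 and 40.2, 153, and 246 CPM on LN521, so the sum was lower on LN523 in lane 2 and the groups overlapped.

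Since CRYBB1 rose, and since proteins of the MAF family are known to bind crystallin promoters, the RefSeq promoter windows (GRCh38.p14) of the crystallins with the clearest separation are shown, each as the 250 bases before the start, 5′ to 3′ on the gene's strand. Capitals mark the letters TGCTGA, the core of the MAF recognition element, searched on both strands.
CRYBB1: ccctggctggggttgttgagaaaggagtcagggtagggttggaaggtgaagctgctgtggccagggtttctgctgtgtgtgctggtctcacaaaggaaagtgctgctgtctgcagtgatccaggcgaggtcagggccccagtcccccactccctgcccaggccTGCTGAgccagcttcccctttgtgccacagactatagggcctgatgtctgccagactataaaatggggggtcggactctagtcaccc
CRYAA: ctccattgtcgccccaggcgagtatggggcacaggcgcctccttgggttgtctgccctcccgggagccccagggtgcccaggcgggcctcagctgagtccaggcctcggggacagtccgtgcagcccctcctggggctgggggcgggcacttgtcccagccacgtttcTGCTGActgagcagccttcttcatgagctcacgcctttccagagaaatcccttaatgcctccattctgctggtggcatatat
The windows lie at chr22:26618028-26618277 (minus strand) and chr21:43168758-43169007 (plus strand). The match ran from 87 to 82 bases before the start in CRYBB1 and from 82 to 77 bases before it in CRYAA. Of 35116 windows of 250 bases in the table, 4923 (14.0%) held these letters on either strand, so a match is a description and not evidence of binding.

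Pigment genes lay on the other side. TYRP1, TYR, and DCT encode enzymes of melanin synthesis, and PMEL the fibril protein of the melanosome. In the list of 26 genes of pigment epithelium and melanosome, 22 had lower and 4 had higher levels on LN523, 11 of the 22 had an unadjusted p-value under 0.05, and 1, TYRP1, passed the adjusted threshold, with a list median of -0.453. TYRP1 (ENSG00000107165; chromosome 9, 12685439 to 12710285) was at 18.8, 16.5, and 12.1 CPM on LN523 and at 21.7, 163, and 138 CPM on LN521 (15.8 ± 3.42 against 108 ± 75.5 CPM, SD, n = 3 each). The groups did not overlap, but LN521 replicate 1 lay just above the LN523 libraries. TYRP1 fell by 2.49 on the log2 scale (standard error 0.43, adjusted p = 0.0221). TYR was at 6.53, 5.61, and 5.35 CPM on LN523 and at 9.05, 26.5, and 16.1 CPM on LN521, without overlap (log2 fold change -1.49, adjusted p = 0.164). DCT was at 204, 225, and 213 CPM on LN523 and at 200, 429, and 561 CPM on LN521. For PMEL the levels were 917, 519, and 633 CPM on LN523 and 368, 1552, and 1325 CPM on LN521, so LN521 replicate 1 was the lowest library and the other LN521 libraries the highest. Neither DCT nor PMEL passed the test. MITF, the master transcription factor gene of pigment cells, had almost equal means (59.0 ± 13.9 and 59.8 ± 32.4 CPM, SD, n = 3 each). RPE65, the visual cycle isomerase gene of mature pigment epithelium, was under 1 CPM in each of the 6 libraries, and BEST1 was at 4.04 ± 2.00 and 3.71 ± 2.17 CPM (SD, n = 3 each). Summed over the list, levels were 1710, 1300, and 1350 CPM on LN523 and 1040, 2940, and 2650 CPM on LN521.

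The promoter windows of the pigment enzymes whose groups did not overlap are shown in the same way, as MITF is known to bind the letters CATGTG within the M box, which are in capitals on either strand.
TYRP1: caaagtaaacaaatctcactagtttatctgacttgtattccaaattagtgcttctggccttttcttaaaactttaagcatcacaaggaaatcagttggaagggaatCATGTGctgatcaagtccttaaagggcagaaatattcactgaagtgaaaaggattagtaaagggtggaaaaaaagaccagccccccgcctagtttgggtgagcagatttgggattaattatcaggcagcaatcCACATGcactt
TYR: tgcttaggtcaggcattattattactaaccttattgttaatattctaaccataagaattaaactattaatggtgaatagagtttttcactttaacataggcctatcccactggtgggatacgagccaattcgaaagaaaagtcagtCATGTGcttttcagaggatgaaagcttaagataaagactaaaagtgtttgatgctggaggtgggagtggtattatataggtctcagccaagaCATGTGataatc
These windows lie at chr9:12693135-12693384 and chr11:89177625-89177874, both on the plus strand. Each held 2 matches, in TYRP1 at 144 to 139 and 11 to 6 bases before the start and in TYR at 104 to 99 and 12 to 7 bases before it, and 3307 of the 35116 windows (9.42%) held at least 1. The first TYRP1 match overlaps a TGCTGA match at 140 to 135 bases. The TYRP1 window precedes a RefSeq start that lies inside the gene span given above, so it is not the sequence before that span.

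Epithelial genes were lower on LN523 as groups, with few single genes past the threshold. Of 35 genes of surface ectoderm and stratified epithelium, 34 were lower, 26 of these had an unadjusted p-value under 0.05, 22 were lower in all 3 lanes, and 1, SERPINB2, passed the adjusted threshold, with a list median of -1.21. The median was -0.552 without LN521 replicate 1 and -0.617 without LN523 replicate 1. In none of the 35 were the groups free of overlap, since LN523 replicate 2 was high. The summed level was 1230, 3750, and 1610 CPM on LN523 and 2710, 4100, and 2120 CPM on LN521, and replicate 2 was also the highest on LN323 (1750, 3450, and 2260 CPM). TP63, the master regulator gene of stratified epithelium, was at 3.31, 67.5, and 17.4 CPM on LN523 and at 24.6, 89.7, and 27.0 CPM on LN521. It was lower on LN523 within each lane, with a difference of -1.29 on the log2 scale that did not pass the test. E-cadherin (CDH1) was at 12.1, 304, and 95.3 CPM on LN523 and at 231, 289, and 147 CPM on LN521, and GRHL2, a transcription factor gene of epithelial junctions, at 2.88, 68.4, and 17.6 CPM on LN523 and at 106, 66.2, and 37.3 CPM on LN521. In lane 2 these 2 genes were slightly higher on LN523. Of the transcription factor genes named, KLF5 came closest to the threshold (log2 fold change -1.41, standard error 0.29, adjusted p = 0.0697).

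Of 17 keratin genes, 16 were lower on LN523 and 9 had an unadjusted p-value under 0.05, with a median of -1.16 (-0.427 without LN521 replicate 1 and -0.583 without LN523 replicate 1) and none past the adjusted threshold. Their summed level was 683, 2250, and 1160 CPM on LN523 and 2400, 2130, and 1630 CPM on LN521, so it was higher on LN523 in lane 2. KRT17 was at 60.0, 365, and 110 CPM on LN523 and at 349, 394, and 191 CPM on LN521 (log2 fold change -1.17, adjusted p = 0.162). The simple-epithelium keratin gene KRT18 was at 102, 243, and 155 CPM on LN523 and at 330, 248, and 208 CPM on LN521. The basal keratin genes were low, KRT5 between 0.68 and 8.45 CPM and KRT14 under 1 CPM in each of the 6 libraries. Of 29 tight junction and claudin genes, 26 were lower, 15 with an unadjusted p-value under 0.05 and 15 in all 3 lanes (median -0.678). CLDN4 was at 39.0, 252, and 57.7 CPM on LN523 and at 184, 335, and 116 CPM on LN521, and EPCAM, an epithelial adhesion molecule gene, at 5.20, 75.5, and 23.2 CPM on LN523 and at 68.3, 106, and 48.4 CPM on LN521. Both were lower within each lane and overlapped between groups through LN523 replicate 2. Of 21 mucin and apical membrane genes, 16 were lower and 5 higher (median -0.648), and MUC15 passed the threshold. PODXL, which encodes podocalyxin, went the other way, at 118, 41.2, and 71.2 CPM on LN523 and at 36.3, 18.8, and 45.9 CPM on LN521 (log2 fold change 1.14, adjusted p = 0.0896). Of 28 caveolin, annexin, and S100 genes, 22 were lower, 10 with an unadjusted p-value under 0.05, and CAV1 passed the adjusted threshold. ANXA1, a phospholipid-binding protein gene, was at 69.1, 534, and 169 CPM on LN523 and at 391.7, 805, and 271 CPM on LN521 (log2 fold change -1.29, adjusted p = 0.0684).

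**Figure D3:**
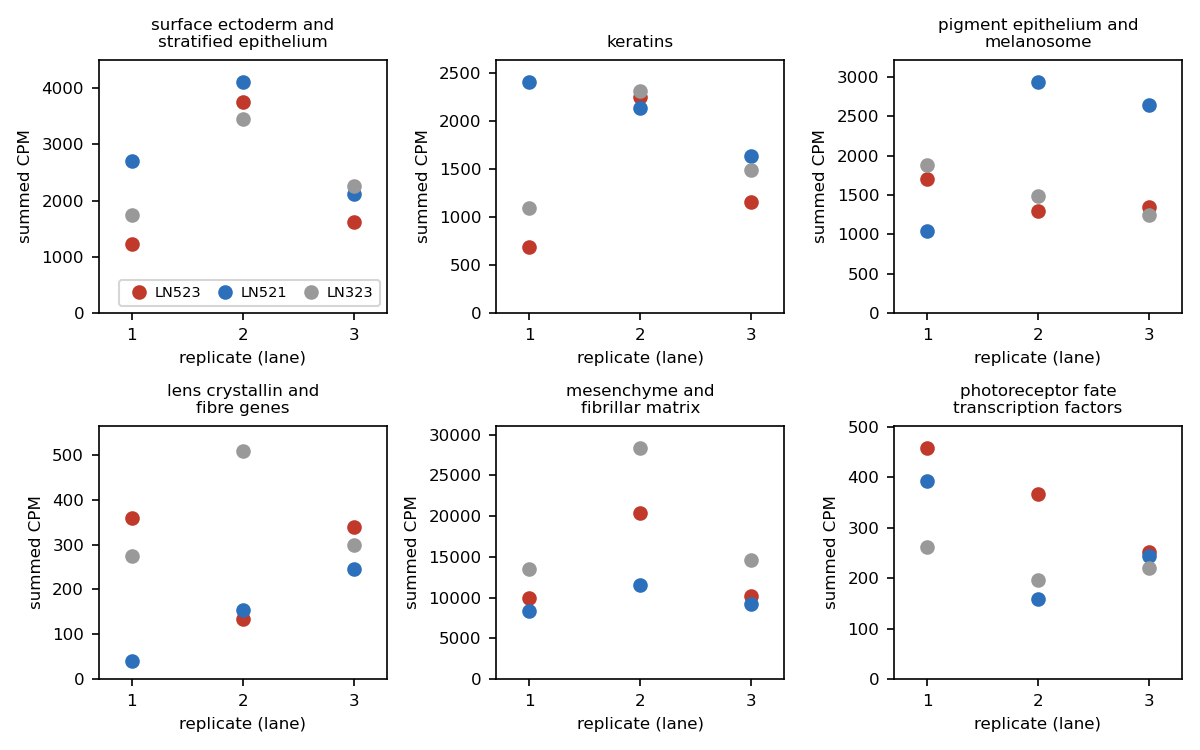
Summed CPM of 6 gene lists in each day 32 library, by replicate (equal to lane), for LN523 (red), LN521 (blue), and LN323 (grey). Replicate 2 was the highest of each matrix for surface ectoderm and mesenchyme, and LN521 replicate 1 was the lowest library for pigment and lens genes.

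Genes of retinal progenitors and early neurons had small positive medians. Of 22 eye field and neural retina transcription factors, 15 were higher and 7 lower on LN523, 6 and 3 of these with an unadjusted p-value under 0.05, and none passed the adjusted threshold (median 0.219). SIX6, an eye field gene, was at 354, 143, and 420 CPM on LN523 and at 215, 120, and 228 CPM on LN521. Its level was higher on LN523 within each lane, with overlap through replicate 2 and a difference of 0.59 on the log2 scale (adjusted p = 0.453). HMX1, a transcription factor gene of retina and ear, was at 398, 178, and 383 CPM on LN523 and at 158, 67.1, and 324 CPM on LN521 (log2 fold change 0.99, adjusted p = 0.0741). TBX2, a dorsal retina gene, was at 925, 604, and 658 CPM on LN523 and at 127, 234, and 561 CPM on LN521, without overlap (log2 fold change 1.34, adjusted p = 0.158). VAX1, a transcription factor gene of the optic stalk, was at 0, 0, and 0.0469 CPM on LN523 and at 7.24, 0.779, and 0.0577 CPM on LN521, mostly in replicate 1. PAX6 had means of 724 ± 191 and 662 ± 230 CPM and RAX of 204 ± 112 and 220 ± 151 CPM (SD, n = 3 each), with overlapping groups in both.

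Retinal ganglion cells are the first neurons born in the retina. Of 24 genes of ganglion cells and projection neurons, 18 were higher on LN523, 6 of them with an unadjusted p-value under 0.05, and CNTN2 passed the adjusted threshold (median 0.258). Single libraries set the size of this median, which was 1.21 without LN521 replicate 1, 0.556 without LN523 replicate 1, 0.0796 without LN521 replicate 2 or 3, and 0.0952 without LN523 replicate 2. ATOH7, the transcription factor gene needed for ganglion cell fate, was at 229, 101, and 105 CPM on LN523 and at 114, 9.05, and 50.5 CPM on LN521. POU4F2, a transcription factor gene of committed ganglion cells, was at 24.2, 17.6, and 13.3 CPM on LN523 and at 12.0, 1.20, and 5.89 CPM on LN521. POU4F2 did not overlap and ATOH7 overlapped slightly, and with log2 fold changes of 1.70 and 1.52 neither passed the test (adjusted p = 0.25 and 0.254). GAP43, a growth cone gene, was at 55.2 ± 9.87 and 32.8 ± 17.6 CPM, whereas ISL1 was at 2.51 ± 0.726 and 2.48 ± 1.83 CPM (SD, n = 3 each). Of 26 Notch pathway and proneural genes, 18 were higher, 8 with an unadjusted p-value under 0.05 and 10 in all 3 lanes, and none passed the adjusted threshold (median 0.291, and 0.659 or 0.117 without LN521 replicate 1 or 2). HES5, a Notch target gene, was at 8.04, 5.17, and 2.44 CPM on LN523 and at 1.16, 1.80, and 1.5 CPM on LN521. Of 18 horizontal and amacrine cell genes, 10 were higher and 8 lower, and the progenitor factor gene FOXN4 was at 28.1, 15.0, and 39.1 CPM on LN523 and at 15.4, 6.77, and 16.0 CPM on LN521 (log2 fold change 1.09, adjusted p = 0.198). The amacrine gene PTF1A was near 0 in each library.

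Photoreceptor genes showed no call. Of 13 photoreceptor fate transcription factors, 10 were higher and 3 lower on LN523, with 1 in each direction at an unadjusted p-value under 0.05 (median 0.296). CRX, the homeobox gene of photoreceptor precursors, was at 27.8, 36.1, and 5.68 CPM on LN523 and at 31.1, 13.2, and 8.77 CPM on LN521. LN523 was the higher in 1 lane alone, and the log2 difference of 0.20 ± 0.33 (standard error; adjusted p = 0.988) took the opposite sign when replicate 2 of either matrix was left out. OTX2, which acts upstream of CRX, was at 102, 51.2, and 25.7 CPM on LN523 and at 72.1, 47.1, and 25.7 CPM on LN521, so the order of lanes was the same on both matrices. NRL, the rod factor gene, was at 2.86 ± 0.208 and 2.06 ± 1.29 CPM (SD, n = 3 each). RORB, a nuclear receptor gene of rod development, was at 107, 106, and 75.2 CPM on LN523 and at 70.5, 32.0, and 53.9 CPM on LN521, without overlap (log2 fold change 0.94, standard error 0.22, adjusted p = 0.15). Of 40 genes of phototransduction and photoreceptor structure, 22 were higher and 18 lower, with 0 and 1 at an unadjusted p-value under 0.05 (median 0.0946). RCVRN, which encodes recoverin, was at 4.51, 2.56, and 0.188 CPM on LN523 and at 2.16, 0.959, and 0.173 CPM on LN521, and RBP3, the retinoid carrier gene of the matrix around photoreceptors, at 44.1, 49.9, and 4.76 CPM on LN523 and at 40.8, 10.7, and 10.9 CPM on LN521. For RCVRN the lanes differed more than the matrices. The cone gene PDE6H was under 1 CPM in each library. Of 27 presynaptic and ribbon synapse genes, 17 were higher, and the active zone gene BSN (47, 26.2, and 39.5 CPM against 24.6, 15.2, and 19.2 CPM) did not overlap between groups, with adjusted p = 0.198.

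Mesenchymal genes, and some genes of the neural crest and glial list, were detected in each library. They are markers of other cells that such cultures can hold. Of 25 genes of mesenchyme and fibrillar matrix, 20 were higher on LN523, 6 with an unadjusted p-value under 0.05 and none past the adjusted threshold (median 0.384). COL1A1, a collagen I gene, was at 263, 771, and 215 CPM on LN523 and at 204, 143, and 88.5 CPM on LN521, without overlap (log2 fold change 1.25, adjusted p = 0.12). The microfibril gene FBN1 was at 773, 281, and 726 CPM on LN523 and at 223, 225, and 358 CPM on LN521 (log2 fold change 1.05, adjusted p = 0.0606), and PDGFRB, a pericyte receptor gene, at 518, 263, and 295 CPM on LN523 and at 112, 123, and 268 CPM on LN521. COL3A1 was at 517, 5703, and 1056 CPM on LN523 and at 1793, 930, and 920 CPM on LN521, so its mean on LN523 rested on replicate 2, and its log2 fold change was 0.07. Of 19 neural crest and glial genes, 12 were higher and 7 lower, and 1 passed the threshold. The crest factor gene FOXD3 was at 0 in each LN523 library and at most 0.201 CPM on LN521, the astrocyte gene GFAP was under 1 CPM in each library, and SOX10 was not analysed here. The Schwann cell receptor gene ERBB3, which epithelia also use, was at 2.81, 77.8, and 12.9 CPM on LN523 and at 46.0, 79.8, and 23.1 CPM on LN521, the same order of lanes as the surface ectoderm sum. Of 12 pluripotency genes, 11 were lower on LN523 (median -1.19, and -0.254 without LN521 replicate 1 or -0.554 without LN523 replicate 1). Their summed level was 107, 121, and 184 CPM on LN523 and 177, 194, and 148 CPM on LN521, with overlap. POU5F1 was highest in LN521 replicate 1, at 1.16, 2.45, and 1.36 CPM on LN523 and at 15.2, 1.74, and 1.27 CPM on LN521.

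Among the cells' own laminin genes and their receptors, no gene passed the adjusted threshold. Of 12 laminin chain genes, 7 were higher and 5 lower on LN523. The chains that the 2 matrices share had values of 0.40 for LAMA5 (258 ± 48.0 against 198 ± 47.5 CPM) and 0.51 for LAMB2 (677 ± 192 against 468 ± 158 CPM, SD, n = 3 each) on the log2 fold change scale. LAMC1, the γ1 gene, was at 408, 478, and 358 CPM on LN523 and at 295, 454, and 357 CPM on LN521, and LAMC3, the γ3 gene, at 10.2, 6.92, and 7.32 CPM on LN523 and at 5.48, 7.97, and 6.06 CPM on LN521. Both overlapped between groups, with log2 fold changes of 0.18 (standard error 0.17) and 0.32 (standard error 0.34). The epithelial laminin genes LAMA3 and LAMB3 were lower, with values of -0.81 and -1.21, and replicate 2 was their highest library on both matrices, as for the surface ectoderm sum. Of 17 laminin receptor genes, 9 were higher and 8 lower (median 0.0256). The integrin genes ITGA6 (122 ± 50 and 147 ± 64.3 CPM), ITGB1 (535 ± 48.4 and 479 ± 106 CPM), and ITGA3 (102 ± 10.7 and 77.1 ± 17.9 CPM), and the dystroglycan gene DAG1 (202 ± 47 and 214 ± 17.9 CPM, SD, n = 3 each) overlapped between groups, and only ITGA1 did not (15.3, 11.1, and 25.0 CPM against 8.39, 5.57, and 10.2 CPM, log2 fold change 1.07, adjusted p = 0.298).

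Signalling lists were mixed. In the WNT list, 21 of 40 genes were higher and 19 lower, and ADGRA2 passed the threshold. The epithelial ligand gene WNT10A was at 6.96, 138, and 30.8 CPM on LN523 and at 105, 108, and 59.1 CPM on LN521, the lane order of the surface ectoderm sum. In the BMP list, 16 of 24 genes were higher (median 0.271), and the BMP target genes ID1 (477, 312, and 282 CPM against 83.3, 323, and 318 CPM) and ID3 (922, 565, and 602 CPM against 161, 496, and 787 CPM) were lowest in LN521 replicate 1. Without that library their log2 fold changes moved from 0.54 and 0.55 to -0.12 and -0.11. In the FGF list, 13 of 23 genes were lower (median -0.206), with the ERK feedback gene DUSP6 at 9.04, 4.93, and 22.8 CPM on LN523 and at 21.3, 34.0, and 15.1 CPM on LN521. In the retinoic acid list, 7 of 15 genes were higher and 8 lower. ALDH1A1, a retinaldehyde dehydrogenase gene, was at 2801, 1760, and 4527 CPM on LN523 and at 215, 1067, and 5771 CPM on LN521, a spread that exceeded the difference of the means. Among 38 endothelin and neuropeptide genes, NTSR1 and VIPR2 rose, 27 were lower (median -0.372), and the endothelin genes EDN3 (0.301, 1.31, and 0.235 CPM against 2.36, 4.61, and 1.5 CPM) and EDNRB (2.15, 3.98, and 2.35 CPM against 15.2, 6.41, and 6.06 CPM) were lower without overlap but missed the adjusted threshold (adjusted p = 0.12 and 0.226).

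Of 27 cell cycle genes, 20 were higher on LN523, 8 with an unadjusted p-value under 0.05 and 9 in all 3 lanes, with none past the adjusted threshold (median 0.382, and 0.883 or 0.051 without LN521 replicate 1 or 2, and 0.224 without LN523 replicate 2). TOP2A, a topoisomerase gene of dividing cells, was at 469, 561, and 677 CPM on LN523 and at 345, 229, and 476 CPM on LN521, and HMGB2, a chromatin protein gene of proliferating progenitors, at 260, 264, and 308 CPM on LN523 and at 163, 149, and 222 CPM on LN521. TOP2A overlapped slightly and HMGB2 did not. PCNA, the replication clamp gene, went the other way, at 50, 46.9, and 165 CPM on LN523 and at 192, 49.5, and 124 CPM on LN521, with its highest level in LN521 replicate 1. Of 22 glycolysis and hypoxia genes, 16 were higher and 6 lower (median 0.191), and VEGFA, a hypoxia-induced growth factor gene, was at 291, 190, and 146 CPM on LN523 and at 104, 87.2, and 127 CPM on LN521, without overlap (log2 fold change 0.90, adjusted p = 0.162). Of 21 genes of cholesterol and fatty acid synthesis, 18 were higher, with values between -0.149 and 0.433.

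The same contrast at day 22, measured in other libraries of the same matrices, was set beside that of day 32. At day 22, 221 of 38609 genes (0.572%) passed the adjusted threshold, and 11 of the 24 genes of day 32 did so at both days, all in the same direction. These included SRD5A2, NTSR1, PRPH, COL9A3, LRP1B, SOCS3, CDH11, MUC15, TYRP1, and LBX1. The day 22 log2 fold changes of SRD5A2, SOCS3, CDH11, and TYRP1 were 2.36, 1.39, 1.21, and -1.63. CRYBB1 had a value of 0.40 ± 0.65 (standard error) at day 22, when its mean was 1.96 CPM on LN523 (0.0965, 3.73, and 2.07 CPM). Its change between the days missed the adjusted threshold of edgeR's interaction test (adjusted p = 0.0553). In the epithelial lists the day 22 medians were -0.0483 for surface ectoderm and 0.141 for keratins, against -1.21 and -1.16 at day 32, whereas the pigment median was -0.447 at day 22 and -0.453 at day 32. All 22 glycolysis and hypoxia genes were lower on LN523 at day 22, 14 of them past the adjusted threshold (median -0.81), against 16 of 22 higher at day 32. Ganglion and projection neuron genes had a median of -1.14 at day 22 (20 lower and 4 higher) and 0.258 at day 32. At day 22, LN521 replicate 1 was the highest LN521 library for CNTN2 (140, 15.0, and 2.90 CPM) and GAP43 (39.8, 17.5, and 6.6 CPM). It was not the highest for ISL1 or ATOH7. How far the day 22 median rested on that library was not tested. The change of the LN523 to LN521 difference between the days was tested as an interaction with lane within day as a block, and 106 of 42336 genes (0.25%) passed the adjusted threshold. That count was 1 with a single lane block shared by both days, a setting chosen after seeing the data, and 0 without lane as a block (1900 at an unadjusted p-value under 0.05), so it depended on how lanes were modelled.

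**Figure D4:**
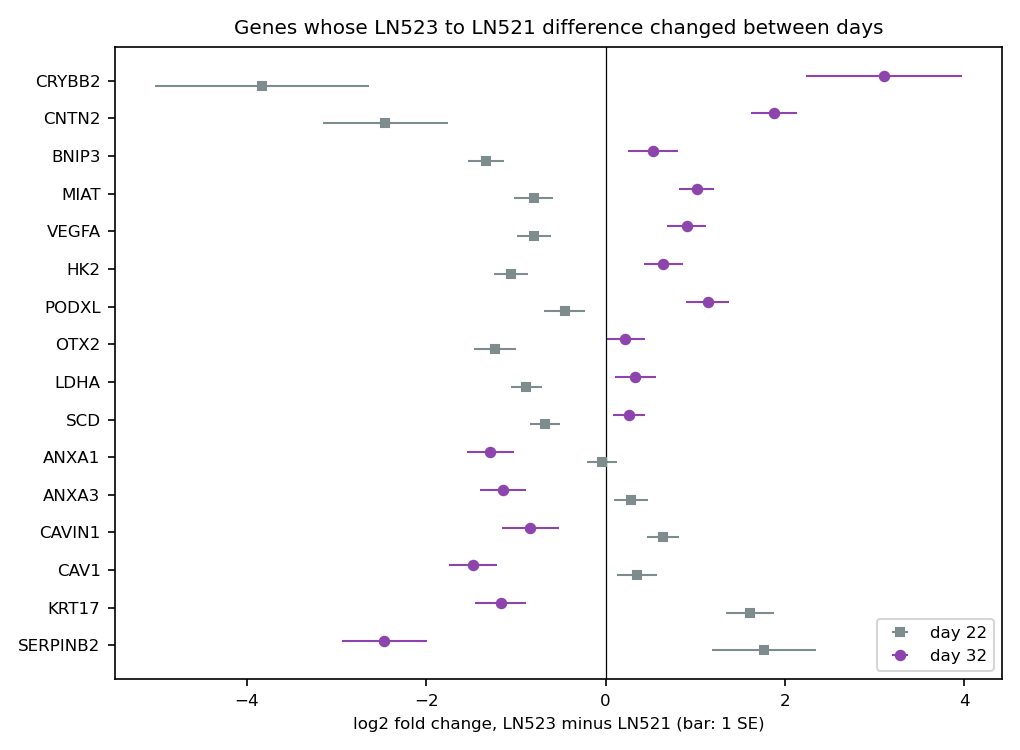
Log2 fold change of LN523 against LN521 at day 22 (grey squares) and day 32 (purple circles), with bars of 1 standard error, for the 16 named genes whose difference changed between the days in the interaction test. CRYBB2, CNTN2, BNIP3, MIAT, VEGFA, HK2, OTX2, PODXL, LDHA, and SCD lay below 0 at day 22 and above 0 at day 32. KRT17, SERPINB2, CAV1, CAVIN1, and ANXA3 lay above 0 at day 22 and below 0 at day 32, and ANXA1 lay below 0 at both days.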

How the data were processed

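Per the labels and the study's methods, the authors prepared stranded libraries with ribosomal RNA depletion, sequenced 150 bp read pairs, aligned them to GRCh38 (Ensembl release 79) with STAR 2.5.2b, and assigned them to genes with featureCounts 1.5.1. The authors deposited rounded counts per gene without normalization, after removing rRNA and mitochondrial genes, and TPM values made from the same counts. Both tables cover 44852 genes, of which 43052 were located by GENCODE 44. The strand setting of the counting is not given in the sources used here.

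Counts of the 9 libraries of day 32 (3 per matrix, 32940453 to 47340990 counts each) were fitted with edgeR 4.0.16 (R 4.3.3), using TMM, genes with more than 1 count in sum, matrix as the factor, and lane as a block, as in the study's model. Genes were called at a Benjamini-Hochberg adjusted p-value under 0.05 over all genes tested by the quasi-likelihood test. The standard error is the log2 fold change divided by the square root of F. The lane pairs of LN523 and LN521 had correlations of deviations from group means of -0.234, 0.345, and 0.34, and the pairing comes from the lane number in the titles. Pairs of unlike lanes ran from -0.519 to 0.29, the latter for LN523 replicate 1 with LN521 replicate 3. In lane 1 the libraries thus did not vary together. The spread between replicates (biological coefficient of variation 44.4%) exceeded counting error. Day 22 was fitted alike, and the change between days on 18 libraries with lane within day as a block.

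Genes are named by 3 rules, namely called genes whose sign agreed across the 3 lanes and whose level averaged 1 CPM or more on LN523 or LN521 (up to 20 per direction), key genes of 28 lists, and up to 4 further members of each list by unadjusted p. The members, lists, and named genes were chosen with earlier results of these data known. Of 646 list genes, 639 were tested. Some named genes entered the fits and counts but are not reported here. Alternatives were DESeq2 1.42.0, other scalings, filters, and samples, no replicate block, limma 3.58.1 on log2(TPM + 1) and log2(TPM + 0.1), and leaving out each replicate. The tests were checked on simulated data, which had less spread between replicates than these libraries and no lane effect. That check therefore does not bear on how firm the calls made here are.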

Additional observations from a re-analysis of the deposited data

Results flagged for a closer look

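The change of the LN523 to LN521 difference from day 22 to day 32 passed the adjusted threshold of edgeR's interaction test for 16 of the 224 named genes that are reported here. Values are the day 32 minus the day 22 log2 fold change. Hypoxia and glycolysis genes moved from lower on LN523 at day 22 to positive values at day 32, with changes of 1.73 for HK2, a hexokinase gene, 1.74 for VEGFA, 1.90 for BNIP3, a mitophagy gene, and 1.25 for LDHA, the lactate dehydrogenase gene. HK2 was at 59.0, 26.3, and 68.3 CPM on LN523 and at 95.5, 103, and 96.9 CPM on LN521 at day 22, without overlap. At day 32 it was at 94.5, 64.1, and 96.7 CPM on LN523 and at 39.6, 45.6, and 80.2 CPM on LN521, with overlap. Other genes with positive changes were CNTN2 (4.36), MIAT (1.85), OTX2 (1.49), CRYBB2 (6.77), PODXL (1.63), and the desaturase gene SCD (0.97). CRYBB2 was listed at 0, 0.147, and 0 CPM on LN523 at day 22, so its change rests on few counts, and the day 22 difference of CNTN2 rested on LN521 replicate 1 (140 CPM, against 15.0 and 2.90 CPM in the other replicates).

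Negative changes were -2.75 for the keratin gene KRT17, -4.21 for SERPINB2 of the surface ectoderm list, and, in the list of caveolin, annexin, and S100 genes, -1.79 for CAV1, -1.45 for CAVIN1, -1.39 for ANXA3, and -1.21 for ANXA1. KRT17 was at 13.1, 33.7, and 19.9 CPM on LN523 and at 6.08, 11.0, and 4.66 CPM on LN521 at day 22, higher on LN523 without overlap (adjusted p = 6.43e-05 in edgeR), and was lower on LN523 in each lane at day 32. With a single lane block shared by both days, only KRT17 of the 16 stayed past the threshold (adjusted p = 0.0168), and by DESeq2 7 of the 16 passed.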

How the results depend on the processing

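The 24 calls of day 32 (19 higher, 5 lower) became 823 (448, 375) by DESeq2, 41 (28, 13) with upper-quartile scaling, 82 (49, 33) with only the 6 libraries, and 6 (5, 1) with all 27 libraries, and 23, 24, 23, and 4 of the 24 genes were among them. The count was 0, in both directions, with filterByExpr (1486 at an unadjusted p-value under 0.05), with at least 10 counts in every library (1351), with no replicate block (1449), and with limma on log2(TPM + 1) (2229) or log2(TPM + 0.1) (2320). RLE scaling gave 25 calls, and no filter beyond 1 count gave 24. Leaving out a replicate gave from 1 call (1 higher, 0 lower, without LN523 replicate 3) to 1907 (1084 higher, 823 lower, without LN521 replicate 1), the latter including 23 of the 24 genes. The cause of these differences was not tested.

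The interaction count of 106 became 551 by DESeq2, 93 with RLE scaling, 0 with filterByExpr (1903 at an unadjusted p-value under 0.05) or no replicate block (1900), 1 with a single lane block shared by both days, added after seeing the data, and 28 to 784 when a replicate was left out (without LN523 replicate 3 and without LN521 replicate 1 of day 32).

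Of 123 genes followed, the direction was kept in 2058 of 2081 values under the alternatives. MITF had -0.02 and turned to 0.13 with only the 6 libraries, 0.0069 with all 27, and 0.13 and 0.14 with limma on TPM. The other reversals came from leaving out a replicate, which gave log2 fold changes of -0.29 to 0.54 for CRX, -0.39 to 0.85 for RBP3, -0.35 to 0.40 for PAX6, -0.63 to 0.64 for MITF, -0.049 to 1.16 for MIP, -0.85 to 1.40 for COL3A1, -0.12 to 1.08 for ID1, -0.11 to 1.10 for ID3, -1.09 to 0.29 for PCNA, -1.90 to 0.084 for POU5F1, and -0.0153 to 0.80 for LDHA. None of the 24 called genes changed direction. Each of them but LBX1 had the same sign in every lane, as the naming rule required, and LBX1 was without counts on LN523. A reversal on the same counts was therefore hardly possible, and this result does not bear on how firm the calls are. The list medians of 19 of 28 lists kept their sign under each alternative, with ranges of -1.73 to -0.552 for surface ectoderm, -1.57 to -0.427 for keratins, -0.799 to -0.293 for pigment, 0.759 to 2.27 for lens, -1.65 to -0.254 for pluripotency, 0.0796 to 1.21 for ganglion and projection neuron, 0.051 to 0.883 for cell cycle, 0.117 to 0.659 for Notch and proneural, 0.128 to 0.684 for photoreceptor fate, -1.03 to -0.305 for mucin and apical membrane, -0.737 to -0.126 for endothelin and neuropeptide, 0.0757 to 0.33 for BMP, 0.227 to 0.508 for mesenchyme, and 0.2 to 0.422 for eye field genes. Lists that changed sign included phototransduction (-0.349 to 0.331), retinoic acid (-0.573 to 0.365), and glycolysis and hypoxia genes (-0.0272 to 0.439). For FOXE3 and FOXD3, near 0 counts in both groups, a difference was not detectable at this depth.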
